A study of Mus musculus with 6 samples.

Results

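Cadherins, the protocadherin Pcdh7 and the catenins that bind cadherins inside the cell are described here as 10 genes, Cdh1, Cdh2, Cdh3, Cdh5, Cdh11, Cdh13, Pcdh7, Ctnna1, Ctnnb1 and Ctnnd1, out of 14763 gene names in the deposited data. They were chosen by name, for their values in the very comparison given here, so their differences between groups are a description without a test. The cells were Mvt1, a mouse mammary carcinoma cell line of the FVB/N strain that the labels call mammary epithelial. Cells with CD24 on their surface (CD24+) and cells without it (CD24-) were sorted and grown in the same medium with serum, and RNA was sequenced from 3 plates of each. Each group is thus a sorted part of 1 cell line, no independent sorts are described, and the spread between plates may be technical.

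Classical cadherins are adhesion proteins that span the membrane and bind their like on the neighboring cell in a calcium-dependent way. Their tails hold p120-catenin (Ctnnd1), which keeps the cadherin at the surface, and beta-catenin (Ctnnb1), which binds alpha-catenin (Ctnna1) and through it actin. Beta-catenin is also a co-activator of transcription in the Wnt pathway. Loss of the epithelial cadherin Cdh1 together with gain of the neural cadherin Cdh2 is a known feature of epithelial-mesenchymal transition in carcinoma.

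The libraries held 9046025 to 25692147 mapped reads, and 71.8% to 74.3% of them carried a gene name. Reads per gene were scaled to the reads of all tested genes after TMM normalization and are given in CPM, the unit of edgeR for counts relative to library size, so that a single read was worth 0.0524 to 0.157 CPM. Cd24a, the gene of the sorted marker, had 6.99 to 12.1 CPM in CD24- and 72.5 to 85.6 CPM in CD24+ libraries. Of 11 luminal epithelial markers 10 had reads, with a summed level of 1890 to 2103 CPM in CD24- and 765 to 910 CPM in CD24+ libraries, nearly all from Krt8 and Krt18. The defining markers Epcam and Cldn7 were at or near 0, with 6 reads and 1 read in all 6 libraries. Of the other luminal markers that could be tested, Ocln (51.6 CPM in CD24-, 2.996 CPM in CD24+) and Krt19 (12.1 and 3.22 CPM) fell like the sum, whereas Cldn3 (0.397 and 2.47 CPM) rose (edgeR adjusted p = 2.20e-07, 9.60e-06 and 0.00407). Cldn3 had enough reads to be tested only through CD24+, so a rise was built into its being tested. The sum of 8 fibroblast markers, of which 6 had reads, was 11.6 to 30.3 CPM in CD24- and 180 to 273 CPM in CD24+ libraries, and the myoepithelial (7 of 7 with reads, 0.526 to 1.47 against 6.72 to 14.2 CPM) and neural (5 of 6, 1.80 to 2.75 against 15.3 to 19.6 CPM) sums were also higher in CD24+. The blood markers (3 of 8 with reads) summed to 46.7 to 80.6 CPM in CD24- and 6.95 to 9.44 CPM in CD24+. In CD24+ the fibroblast sum came mainly from Col3a1 and Pdgfrb (142 and 66.7 CPM), with no reads under the names Thy1 and Lum, and the myoepithelial sum from Acta2 (8.01 CPM), with 1 read of Krt5 and 3 of Krt14 in all. The neural sum in CD24+ came mainly from Ncam1 (15.3 CPM), with no reads under the name Sox10, and the blood sum mainly from Cd68 (64.6 CPM in CD24-, 8.16 CPM in CD24+), with 2 reads of the defining marker Ptprc in all. Itgam, the only other blood marker that could be tested, was also lower in CD24+, with 3.84 CPM in CD24- and 0.0175 CPM in CD24+ (log2 fold change -6.85, edgeR adjusted p = 3.58e-06). The CD24+ value rests on 1 read, so the size of this fold is uncertain. Itgam had enough reads to be tested only through CD24-, so a fall was built into its being tested. The part of these shifts in the values below was not tested, and in sorted cells sequenced in bulk, fewer cells of a kind and less RNA per cell cannot be told apart.

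Cdh1, the cadherin of epithelial junctions, was close to absent. No CD24- library held a read under its name, and the CD24+ libraries held 0, 1 and 1. The limit that 3 reads set lay between 0.157 and 0.472 CPM in a library, so that no difference was detectable at this depth and no fold is given. When all mapped reads were matched by exact sequence to GENCODE M21 transcripts, whatever their deposited name, 3 reads matched Cdh1 alone, 2 of them in CD24- libraries. Cdh3, the placental cadherin, lies next to Cdh1 on chromosome 8 of GRCm38, from 106510891 to 106557297, with Cdh1 from 106603351 to 106670246. Its counts were 4, 6 and 2 reads in CD24- and 0, 4 and 2 reads in CD24+ libraries. Pooled over libraries, the level of Cdh3 in CD24- was 2.98 times that in CD24+ (95% exact interval 1.04 to 9.69, which covers counting error only), and the CPM values of the groups overlapped. Cdh1 and Cdh3 did not pass the filter on low counts, whereas the other 8 did.

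Cdh2, the neural cadherin, had more reads per kb of transcript in CD24+ cells than the other adhesion genes among the 10. Its level was 3.79, 4.17 and 3.83 CPM in CD24- replicates 1, 2 and 3 and 56.7, 53.7 and 51.2 CPM in CD24+ replicates 1, 2 and 3. The groups were far apart relative to the spread within each. The log2 fold change (CD24+ over CD24-, from edgeR) was 3.77 with a standard error of 0.12. Over all mapped reads, whatever their deposited name, reads fell in all 16 exons of its main transcript. Of the reads deposited as Cdh2, 98.5% matched Cdh2 transcripts alone. Among all mapped reads 2955 matched Cdh2 alone, of which 2364 were deposited under its name.

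Cdh13 (T-cadherin) is an unusual cadherin, held in the membrane by a lipid anchor and without the tail that binds catenins. It had 3.26, 3.41 and 2.14 CPM in CD24- and 36.4, 32.8 and 35.1 CPM in CD24+ libraries. As for Cdh2, every CD24+ library stood above every CD24- library, with a log2 fold change of 3.54 (SE 0.16). Over all mapped reads, whatever their deposited name, all 14 exons held reads. Of the reads deposited as Cdh13, 78.4% matched Cdh13 transcripts alone and 21.6% matched no transcript. Among all mapped reads 1929 matched Cdh13 alone, of which 1227 were deposited under its name.

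Pcdh7 is a protocadherin, a relative of cadherins that lacks the catenin-binding tail. On the deposited counts it had the largest difference of the 8 genes tested, with 1.26, 2.18 and 1.80 CPM in CD24- and 38.3, 40.5 and 38.3 CPM in CD24+ libraries. The log2 fold change was 4.46 (SE 0.17). With the median coverage of the long transcript, quantile normalised and with 10 added before the logarithm, along the steps of the study's estimate, it was 0.15, below those of Cdh2 (0.68) and Cdh13 (0.63). Most reads lay in the long first exon, with 1422 reads over 6 libraries. The end of the short transcript (GRCm38 chr5:57728114-57729465) held 303 reads, and the last exon of the long transcript, which codes for another tail, held 147. Per possible start position these were 0.333, 0.232 and 0.0349 reads, so the short form was the better covered. In CD24+ replicates 1, 2 and 3 the last exon of the long form had 28, 60 and 55 reads, and in CD24- it had 2, 2 and 0, so the higher level in CD24+ was seen at both ends. Of the deposited Pcdh7 reads 30.8% also matched 4932441J04Rik, a transcript on the other strand that overlaps the first exon. Strand was not kept, so these reads cannot be told apart. On reads that matched Pcdh7 alone the log2 fold change was 4.43.

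**Figure D1:**
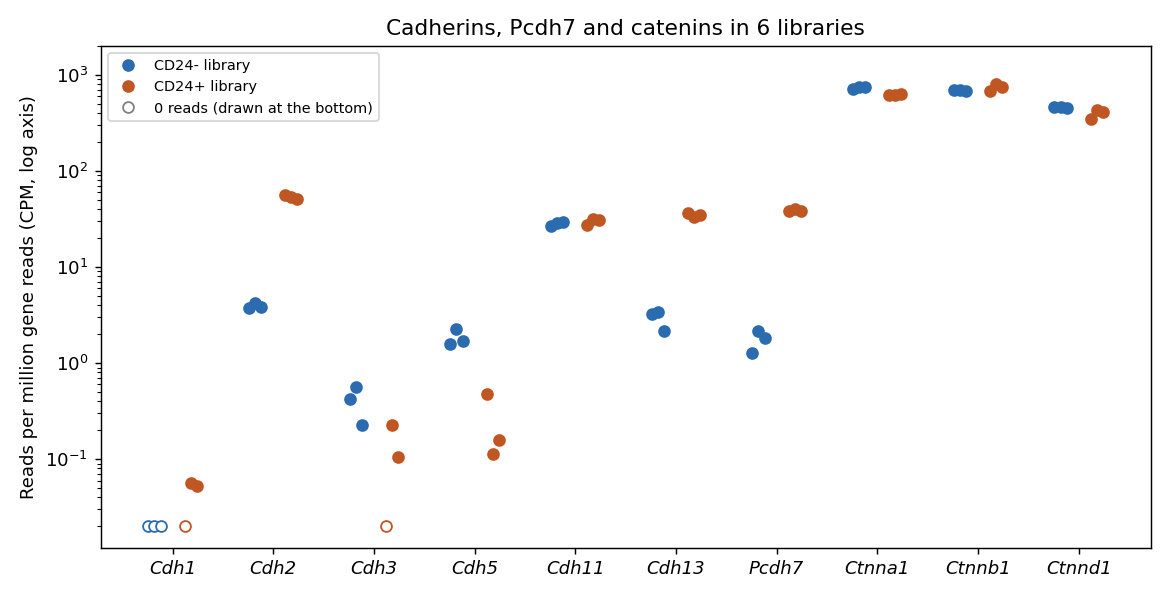
Level of each of the 10 genes in each library, in CPM on a log axis, with 1 point per library and open points for libraries with 0 reads. Cdh2, Cdh13 and Pcdh7 lie between 32.8 and 56.7 CPM in CD24+ and at or below 4.17 CPM in CD24- libraries, whereas the catenins lie between 347 and 794 CPM in every library.

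Cdh5, the cadherin of endothelial junctions, went the other way at a low level. It had 15, 24 and 15 reads in CD24- and 3, 2 and 3 reads in CD24+ libraries, or 1.58, 2.28 and 1.69 CPM against 0.472, 0.113 and 0.157 CPM. The CD24- values were all above the CD24+ values, and the pooled level in CD24- was 10.1 times that in CD24+ (95% exact interval 4.76 to 24.5, counting error only). The log2 fold change was -3.23 (SE 0.46). At its CD24+ level Cdh5 passed the filter on low counts only through CD24-, so a fall was built into its being tested. Among the 8 endothelial markers, which include Cdh5 itself, 7 had reads, and their sum was 121 to 167 CPM in CD24- and 78.2 to 93.4 CPM in CD24+ libraries, nearly all from Flt1. The defining endothelial genes Pecam1, Kdr and Tie1 were at or near 0, with 9, 2 and 1 reads in all.

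Cdh11, the osteoblast cadherin, is a type II classical cadherin that is usual in mesenchymal cells. The reads deposited under its name stood at nearly the same level in both groups. They came to 26.6, 28.7 and 29.5 CPM in CD24- and 27.5, 31.3 and 30.9 CPM in CD24+ libraries, and the groups overlapped. The log2 fold change of 0.09 (SE 0.10) was smaller than its error. The reads behind this level were not those of Cdh11 alone. Of the 2136 reads deposited under the name, 0.562% matched Cdh11 transcripts only, 33.8% matched Cdh11 and at least 1 other gene, 41.9% matched only other genes and 23.7% matched no transcript. The gene matched most often was 6820431F20Rik, a transcribed pseudogene elsewhere on chromosome 8 (GRCm38 chr8:20262613-20297432), which 67.0% of the reads matched. It was followed by the pseudogene 2610005L07Rik at 31.8%. The deposited locations of the reads span 105188578 to 105214435 of chromosome 8 in mm9.

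The stretch of Cdh11 exon 4 that holds the most differences from 6820431F20Rik is shown because it lets reads of the gene and of the copy be told apart. It covers bases 159 to 218 of the exon, at chr8:102673889-102673948 of GRCm38, minus strand, and the copy lies at chr8:20277953-20278012, minus strand. Capitals mark the 5 bases that differ.
Cdh11: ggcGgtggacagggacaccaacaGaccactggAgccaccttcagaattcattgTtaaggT
6820431F20Rik: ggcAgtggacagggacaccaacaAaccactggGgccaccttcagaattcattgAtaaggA
A read deposited as Cdh11 that fits both genes, from the same exon where no base differs, is shown for contrast. It lies at chr8:105197896-105197942 of mm9 and was read 38 times in the 6 libraries.
Read in both: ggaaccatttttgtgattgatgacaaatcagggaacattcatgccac

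Over the whole of exon 4 the 2 sequences differ at 10 of 295 bases. Among all mapped reads that span such a difference, whatever their deposited name, 2223 carried the bases of 6820431F20Rik and 137 those of Cdh11. Only 4 of the latter matched no other gene. Within exon 4, no read deposited as Cdh11 matched 6820431F20Rik without also matching Cdh11. By library the copy had 287, 303 and 270 such reads in CD24- and 192, 568 and 603 in CD24+, and reads with the Cdh11 bases were fewer in each library. Reads that matched Cdh11 transcripts lay in exons 3, 4 and 6 apart from 1 read in exon 7, and the other 9 of its 13 exons held 0. The 12 reads that matched Cdh11 alone lay in exons 4 and 6. By contrast, each exon of Cdh2 and Cdh13 held reads. By the matches of the reads deposited under its name, the deposited level of Cdh11 is that of a group of near-identical sequences, not that of the gene. Exons 1 and 13 of Cdh11, with 701 and 2670 possible start positions, held 0 reads. Little or no transcript of the gene itself was thus seen in either group.

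**Figure D2:**
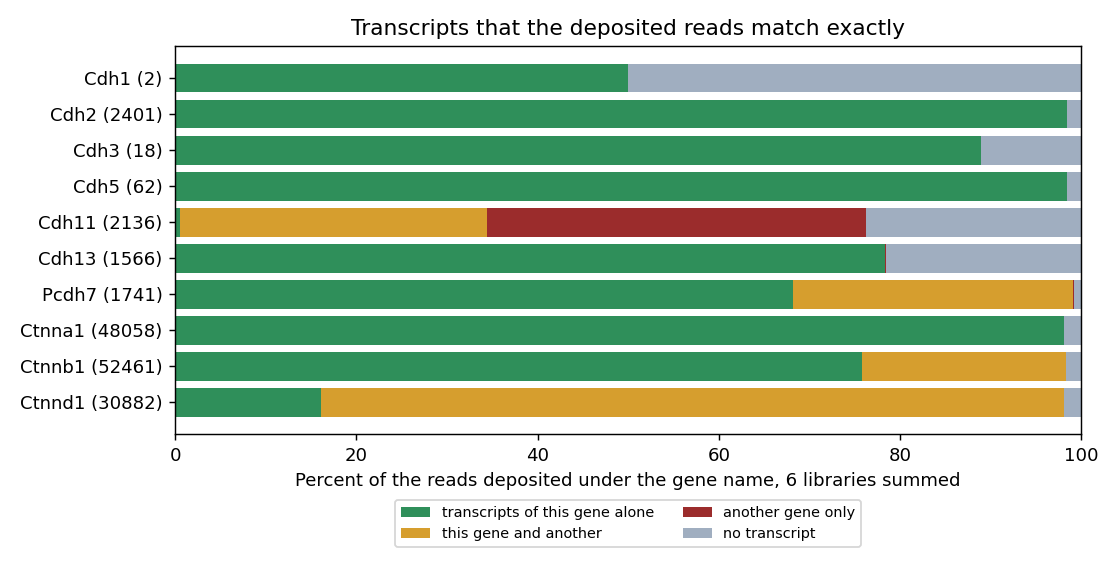
Share of the reads deposited under each gene name that match transcripts of that gene alone, of that gene and another, of another gene only, or of none, in percent with the read number beside each name. Cdh11 has 0.562% in the first class, against 98.5% for Cdh2, and Ctnnd1 has 82.0% in the second.

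**Figure D3:**
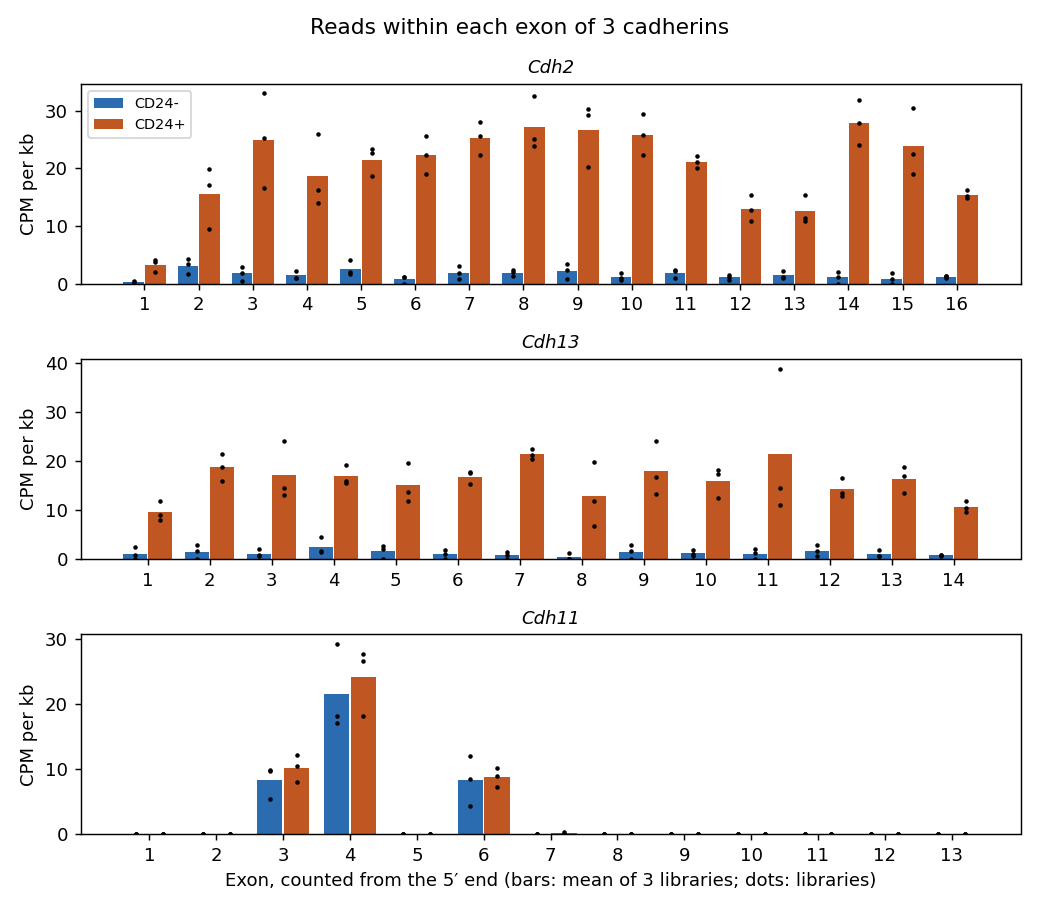
Reads within each exon of Cdh2, Cdh13 and Cdh11, in CPM per kb of possible start positions, with bars for the mean of 3 libraries and dots for libraries. All 16 exons of Cdh2 and all 14 of Cdh13 hold reads, whereas those of Cdh11 are in exons 3, 4 and 6 apart from 1 read in exon 7.

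The 3 catenins were abundant in both groups, and their differences were small. Ctnnb1 had 691, 696 and 679 CPM in CD24- and 681, 794 and 743 CPM in CD24+ libraries, which overlap. Its log2 fold change was 0.10 (SE 0.08). It changed sign when each distinct sequence was counted once (-0.06). The number of distinct sequences is capped by the 3577 start positions of the main transcript on either strand. It therefore follows the level of an abundant gene poorly. Of its reads 22.5% also matched Ulk4, a gene on the other strand whose end overlaps that of Ctnnb1.

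Ctnna1 had 717, 743 and 742 CPM in CD24- and 615, 619.9 and 627 CPM in CD24+ libraries. All CD24+ values were below all CD24- values, by a log2 fold change of -0.24 (SE 0.07). Of its reads 98.0% matched Ctnna1 alone and all 18 exons held reads.

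Ctnnd1 had 468, 463 and 448 CPM in CD24- and 347, 426 and 411 CPM in CD24+ libraries. The groups did not overlap, but CD24+ replicate 1, the shallowest library, was well below the other CD24+ libraries. The log2 fold change was -0.22 (SE 0.09), and it was -0.14 without CD24+ replicate 1. Of its reads 82.0% also matched Gm28635, a protein-coding model on the same strand that overlaps it (GRCm38 chr2:84601439-84678041). On reads that matched Ctnnd1 alone the log2 fold change was -0.21.

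Ctnnd1 is known for alternative exons that change the isoform of p120-catenin. The short exon 11 and exon 18 (known as exons C and A) are shown because the read length decides which of them can be seen. They lie on the minus strand of GRCm38, exon 11 at chr2:84612532-84612549 and exon 18 at chr2:84605184-84605246, and 11 and 20 of the 30 annotated transcripts hold them whole.
Exon 11: ATGAGTGGTTCTCCAGAG
Exon 18: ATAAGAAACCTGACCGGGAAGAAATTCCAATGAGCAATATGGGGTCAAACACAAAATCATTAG
Exon 11, with 18 bases, is shorter than a read of 47 bases, so no read can lie within it. Exon 18, with 63 bases, held 5, 12 and 6 reads in CD24- and 6, 15 and 13 in CD24+ libraries. Relative to the density of the constitutive exons (the 14 that at least 24 of the 30 transcripts hold) this was 41.9% ± 16.5 in CD24- and 53.1% ± 12.4 in CD24+ (SD, n = 3 each), with overlap. Exon 3 stood at 62.1% ± 10.7 in CD24- and 63.6% ± 3.54 in CD24+, also with overlap. Exon 20 (known as exon B) stood at 2.33% ± 0.256 and 2.29% ± 2.11 and held between 0 and 3 reads in a library. No difference in exon use was detectable at this depth.

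**Figure D4:**
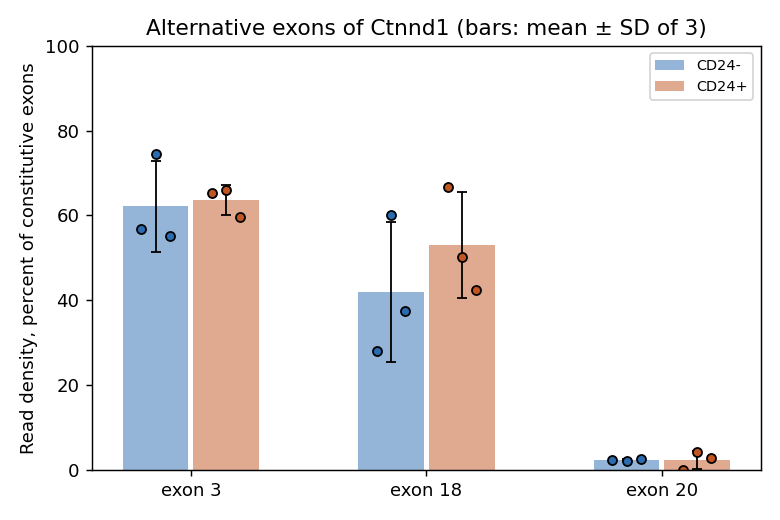
Read density of 3 alternative exons of Ctnnd1 in percent of its constitutive exons, with bars for the mean, error bars for the SD and points for the 3 libraries of each group. The groups overlap in exons 3, 18 and 20, and exon 20 stays below 5% in every library.

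Of the 8 genes that passed the filter, 3 (Cdh2, Cdh13 and Pcdh7) had all CD24+ values above all CD24- values, 3 (Cdh5, Ctnna1 and Ctnnd1) had them below, and 2 overlapped. Over all 11125 tested genes 57.3% did not overlap, 29.7% above and 27.6% below. Since the 10 genes were chosen on this contrast, nothing is read from their counts. Over all tested genes 6.97% had a log2 fold change of at least 2 in either direction.

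Levels between genes were compared per kb of transcript, on reads that matched the main transcript. The length counted all start positions, also those across exon junctions, where few reads could map. This lowers the values of genes with many exons. The alternative given for Pcdh7 counts positions within exons only. In CD24+ cells Cdh2 stood at 13.8 ± 0.526, Cdh13 at 11.6 ± 1.34 and Pcdh7 at 4.06 ± 0.112 CPM per kb (SD, n = 3 each), and the ranges of these 3 genes did not overlap. This divides Pcdh7 by the whole long transcript. Over exon 1 and the end of the short transcript alone, an alternative chosen after the values were seen, Pcdh7 stood at 6.94 ± 0.202 CPM per kb in CD24+ and 0.314 ± 0.0828 in CD24-, 1.71 and 1.70 times the values on the long transcript and below every value of Cdh2 and Cdh13 in the same group. In CD24- cells Cdh2 (0.985 ± 0.0551) and Cdh13 (0.838 ± 0.240) overlapped, whereas Pcdh7 (0.185 ± 0.0304 on the long transcript) was lower. The catenins were far above these adhesion genes, with Ctnna1 at 194 ± 4.46, Ctnnb1 at 189 ± 3.39 and Ctnnd1 at 71.5 ± 2.09 CPM per kb in CD24-. In CD24+ they stood at 165 ± 1.71, 205 ± 15.4 and 61.7 ± 6.32 CPM per kb, and Ctnnd1 was the lowest of the 3 in both groups. The values of Ctnnb1 hold the reads shared with Ulk4, so no order is given between Ctnnb1 and Ctnna1.

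The genes whose log2 CPM values over the 6 libraries, each centered on its own mean, were nearest to those of a member (smallest Euclidean distance) included Flrt2 (0.23) and Fscn1 (0.28) for Cdh2. For Cdh13 they were Ntn1 (0.16), Dse (0.30) and Whrn (0.33), and for Pcdh7 Sema7a (0.35), Trim35 (0.46) and Prrx1 (0.74). The catenins and the reads deposited as Cdh11 had closer neighbors, at distances up to 0.08, in a region where many genes differ little. These were Hsdl1, Bcr and Ap1s3 for Ctnna1, Kpna6, 1300018I05Rik and Lta4h for Ctnnb1, Smc3, C2cd3 and Asxl2 for Ctnnd1 and Ttll5, Ulk1 and Fnbp4 for Cdh11.

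The other genes of the pathway, none of which is among the 10, were tested with edgeR's quasi-likelihood test, with Benjamini-Hochberg adjustment over all 11125 tested genes and a threshold of 0.05. This called 46.1% of all tested genes, 23.8% as higher and 22.3% as lower in CD24+, with a median log2 fold change of 0.02 over all tested genes. The share of each list is to be read against that background.

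Of 82 other cadherins and protocadherins 69 had reads and 22 could be tested. Among these 11 rose in CD24+ and 2 fell (59.1% called), and the median log2 fold change was 0.52. Of the 11, Pcdhga8, Pcdhgb2, Pcdhgb7, Pcdhgb8 and Pcdhgc5 had mean levels of only 0.144 to 0.816 CPM in CD24-. At such a level a gene passed the filter on low counts only through its CD24+ libraries. A rise was thus built into their being tested. Fat4, a giant cadherin of planar polarity and growth control, had 64.5 ± 11.9 CPM in CD24+ and 4.17 ± 0.905 CPM in CD24- (SD, n = 3 each, log2 fold change 3.97, edgeR adjusted p = 1.52e-07). Pcdh18, a protocadherin of the same non-clustered family as Pcdh7, had 48.4 ± 8.57 and 3.94 ± 0.558 CPM (log2 fold change 3.64, edgeR adjusted p = 1.70e-07). The gamma-protocadherins Pcdhga8 (log2 fold change 4.36) and Pcdhgb2 (3.75) rose from very few reads, and without CD24- replicate 3 these values were 5.66 and 5.38. Gamma-protocadherins share their last exons, so reads could be split among them, and 8 of the 11 genes that rose belong to this cluster. The share called and the median of this list therefore lean on a single cluster, and nothing is read from them against the background.

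Fat2 fell most in this list, with 5.30 ± 0.370 CPM in CD24+ and 68.1 ± 33.4 CPM in CD24- (log2 fold change -3.70, edgeR adjusted p = 8.05e-06). CD24- replicate 3, at 107 CPM, was above the other CD24- libraries, at 49.0 and 48.5 CPM. Cdh23, a cadherin of the hair bundle of the inner ear, had 8.68 ± 1.81 and 33.6 ± 9.07 CPM (log2 fold change -1.94, edgeR adjusted p = 5.31e-05). Of its deposited reads, 1368 in all, no more than 107 matched its transcripts, where the log2 fold change was -1.68.

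Of 34 catenin relatives and actin linkers 33 had reads and 29 were tested, and 9 rose and 8 fell in CD24+ (58.6% called, median log2 fold change -0.06). Those that rose most were Wtip, a LIM protein of junctions (1.12 ± 0.388 CPM in CD24-, 16.8 ± 2.50 in CD24+, log2 fold change 3.86), and Enah, an actin elongation factor (9.14 ± 1.10 and 68.4 ± 7.73 CPM, 2.90). Ptprm, a receptor phosphatase that binds cadherins, had a log2 fold change of 2.79, and Nectin2, an adhesion protein of the nectin family, one of 2.76. With 0.627 CPM in CD24-, Ptprm passed the filter only through CD24+. So did Wtip, with 0.677 CPM in CD24- replicate 3. A rise was thus built into their being tested. Among the genes that fell were Camsap3 (log2 fold change -2.16), Plekha7 (-1.98) and Nectin3 (-1.19). Camsap3 and Plekha7 are known to tie microtubules to the junction through p120-catenin, and Plekha7 had 8.50 ± 2.62 CPM in CD24- and 2.12 ± 0.199 in CD24+. Among the relatives of the catenins themselves, Jup (plakoglobin) did not pass the test, at a log2 fold change of -0.29 (SE 0.14), and neither did Vcl (vinculin), at -0.0034 (SE 0.09), whereas Arvcf (0.63) and Pkp4 (0.37), relatives of p120-catenin, rose.

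Of 27 genes of cadherin turnover and beta-catenin degradation all were tested, and 5 rose and 5 fell (37.0% called, median log2 fold change -0.03). Axin2, a scaffold of the degradation complex and a common target of Wnt signaling, rose from 0.279 ± 0.125 CPM to 3.50 ± 0.584 CPM (SD, n = 3 each, log2 fold change 3.65, edgeR adjusted p = 2.26e-05). At its CD24- level Axin2 passed the filter only through CD24+, so a rise was built into its being tested. The kinases Fyn (log2 fold change 1.44) and Src (0.47) and the beta-catenin inhibitor Ctnnbip1 (0.55) also rose. Usp9x, a deubiquitinase, fell from 433 ± 12.5 to 248 ± 20.1 CPM (log2 fold change -0.80, edgeR adjusted p = 2.90e-05). Pip5k1c (-0.49), Cbll1 (-0.45), which marks Cdh1 for degradation, and Numb (-0.38), an endocytic adaptor, fell as well. On reads that matched a single gene Cbll1 had a log2 fold change of -0.20 (edgeR adjusted p = 0.126), and it did not pass with each distinct sequence counted once (0.0809) or with median coverage (limma adjusted p = 0.222). Ctnnbip1 did not pass with median coverage either (limma adjusted p = 0.0596). With distinct sequences Numb did not pass (edgeR adjusted p = 0.136). Nor did Numb pass without CD24- replicate 1 or 2 or CD24+ replicate 2 (edgeR adjusted p = 0.0946, 0.0658 and 0.0596). Of the core of the degradation complex, the kinase Csnk1a1 rose (log2 fold change 0.26, SE 0.07, edgeR adjusted p = 0.0124), whereas Apc (-0.02), Axin1 (0.14), Gsk3a (-0.03) and Gsk3b (0.05 on the log2 scale) did not pass.

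Of 25 regulators of Cdh1 transcription 21 had reads and 11 were tested, and 7 rose and 2 fell (81.8% called, median log2 fold change 0.96). The repressors Snai2 (0.452 ± 0.0736 CPM in CD24-, 4.80 ± 1.03 in CD24+, log2 fold change 3.43) and Twist2 (3.47 ± 0.450 and 36.2 ± 7.65 CPM, 3.36) rose most. Snai2 passed the filter only through CD24+, so a rise was built into its being tested. Under the name Twist2 1555 reads were deposited, while 481 of all mapped reads matched it alone. On reads that matched a single gene Twist2 had 0.748 ± 0.178 and 11.7 ± 2.98 CPM (log2 fold change 3.93). Foxc2 (2.10) and Klf4 (2.02) followed. Zeb1, a repressor of Cdh1, fell by 0.36 on the log2 scale, from 122 ± 3.03 to 94.2 ± 8.77 CPM, and Klf5 fell by 0.69. Zeb2, the relative of Zeb1 in the list, rose instead. On reads that matched a single gene Zeb2 had 20.6 ± 2.28 CPM in CD24- and 54.9 ± 4.15 CPM in CD24+ (log2 fold change 1.44, edgeR adjusted p = 3.57e-06). Zeb1 did not pass with each distinct sequence counted once (edgeR adjusted p = 0.0975) or with median coverage (limma adjusted p = 0.0997). Klf4 and Klf5, factors of epithelial cells, thus moved in opposite directions, with 16.0 and 42.3 CPM in CD24- and 64.4 and 26.4 CPM in CD24+. Snai1 did not pass, at a log2 fold change of 0.16 (SE 0.12). The genes of the list that could not be tested had between 0 and 67 reads in all 6 libraries, the most under the name Grhl1, a grainyhead factor of epithelia (1.11 CPM in CD24- and 0.859 CPM in CD24+, overlapping). Cdh1 itself had too few reads in both groups for these changes to be set beside a change of its own.

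**Figure D5:**
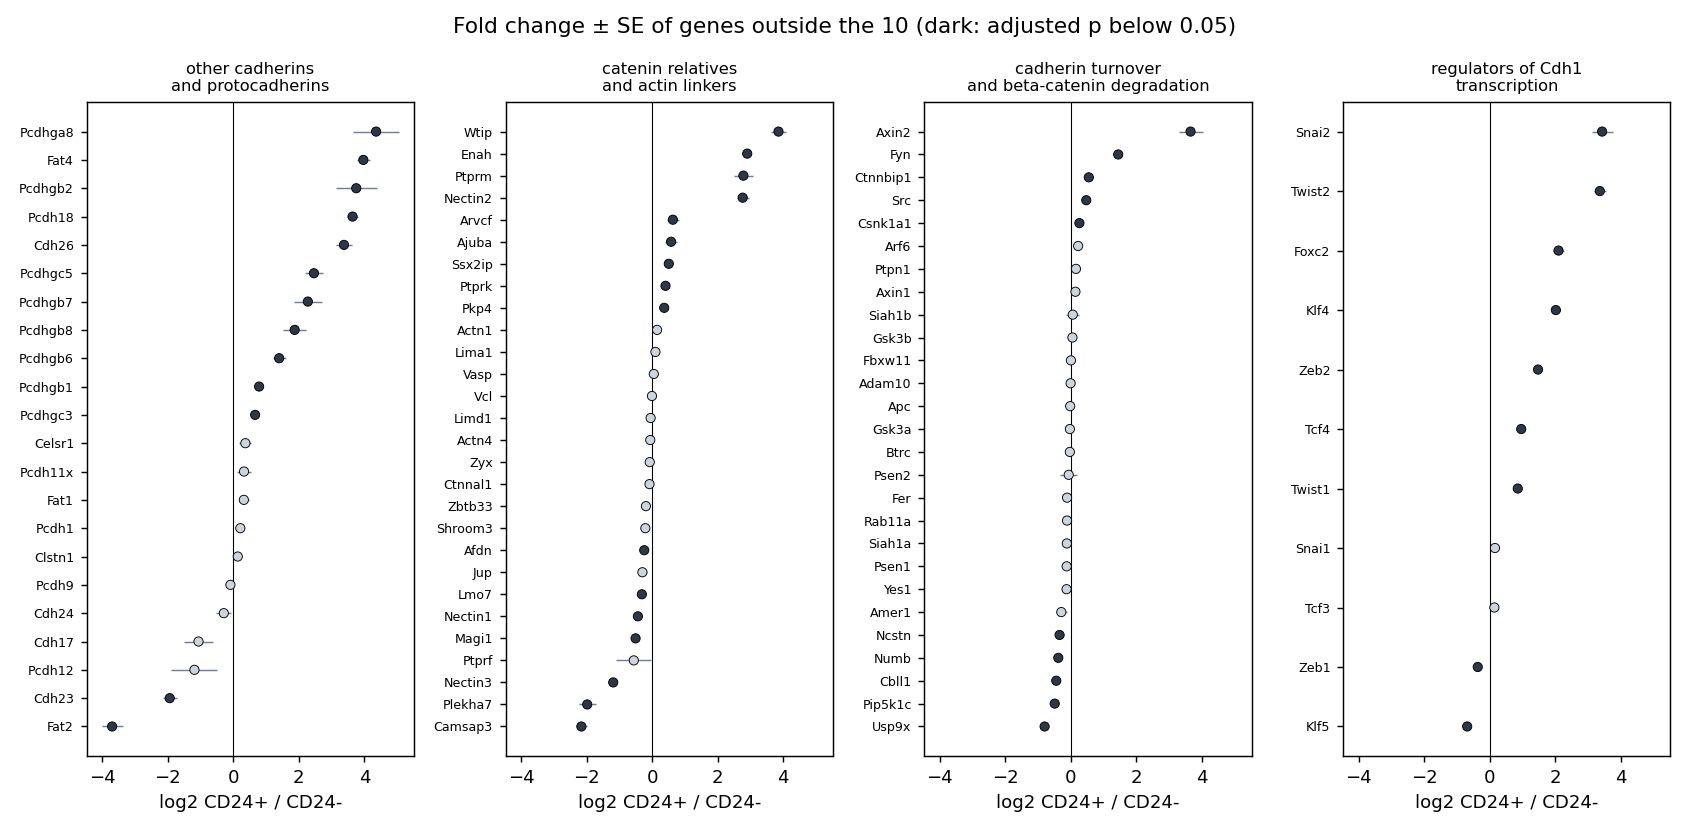
Log2 fold change (CD24+ over CD24-) with its standard error for tested genes of 4 lists, with dark points for an adjusted p below 0.05. The cadherins and protocadherins range from Fat2 (-3.70) to Pcdhga8 (4.36), and the genes of turnover and degradation from Usp9x (-0.80) to Axin2 (3.65).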

How the data were processed

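RNA from 6 sorted Mvt1 samples was sequenced on an Illumina instrument after TruSeq v2 preparation, which keeps no strand. The authors trimmed reads to 47 nt, collapsed duplicates, mapped each distinct sequence by exact match (build mm9 in the submitters' processing notes; the mapping tool is not given in the sources used here) and gave it a single location and annotation. They deposited the read count of each sequence, not normalized. An exact match loses most reads across exon junctions or variants and places a read of near-identical genes at one of them.

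Counts were summed per gene name. Names of repeats (7.56% to 10.2% of reads), of small or noncoding RNA (0.355% to 0.468%) and reads with no name (16.9% to 20.2%) were left out. Genes that passed filterByExpr were fitted with edgeR 4.0.16 in R 4.3.3 (TMM, quasi-likelihood F test, Benjamini-Hochberg, 0.05). Standard errors are the log2 fold change over the root of F. Reads were also matched exactly to GENCODE M21 transcripts (GRCm38), and printed sequences come from there or from the deposited reads. Deposited names were joined to current symbols, and the name Tcf3, which the files use for the present Tcf7l1, was replaced by Tcfe2a for the list of Cdh1 regulators. On simulated counts with 200 changed genes among 11031 tested, edgeR recovered 100% of 4-fold and 100% of 2-fold changes and called 0.138% of the unchanged genes. The changed genes were drawn above a floor in mean CPM, and all genes had the same dispersion. The recovery therefore does not describe genes with few reads or with uneven replicates.

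Between libraries of 1 group the chi-square of the gene counts divided by its degrees of freedom was 9.33 to 15.2, apart from 1.71 between CD24- replicates 1 and 2. All were above sampling noise, so each group kept 3 samples. CD24- replicates 1 and 2 were, however, closer to each other than any other pair. Genes outside the 10 were named by rule, as the 4 called genes with the largest rise and the 4 with the largest fall in each list, at a mean of at least 1 CPM, plus the 3 nearest genes of each member with a mean of at least 10 CPM. Jup, Vcl, Arvcf, Pkp4, Csnk1a1, Apc, Axin1, Gsk3a, Gsk3b, Snai1, Zeb2 and Grhl1, the marker genes, and Tes, Pcdh19, Pcdh9 and Pcdh11x among the observations, were named after their values were seen. A few genes that the rule names are not reported here. The 10 members and the lists were chosen with earlier results of these data known. Alternatives were DESeq2 1.42.0, its size factors, library totals, other filters, a replicate block, each library left out, distinct sequences counted once, reads of a single gene, thinning, and median coverage tested with limma 3.58.1.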

Additional observations from a re-analysis of the deposited data

How the results depend on the processing

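The called counts of the 4 lists and of all genes stayed within 1.5 times of the reported count under each alternative run, apart from 2 results. Without a filter on low counts the other cadherins and protocadherins called rose from 13 to 21, and with the median coverage estimate (quantile normalised, 10 added, limma) the catenin relatives and actin linkers called fell from 17 to 8. All genes called were 4493 with the replicate block, against 5130 without it, and the lists had 14, 16, 9 and 9 called in the order of the report. The block changed no other count by over 1.5 times. Replicate numbers do not pair the libraries, since deviations of same-numbered libraries correlated at 0.02, -0.22 and -0.28. When each distinct sequence was counted once, the log2 fold changes of Cdh11 (-0.0524) and Ctnnb1 (-0.0648) changed sign, both within their error. For Ctnnb1 the cap on distinct sequences limits this count. Under the median coverage estimate the log2 fold changes of Cdh2, Cdh13 and Pcdh7 were 0.68, 0.63 and 0.15, on a scale with 10 added before the logarithm. Of the genes named by rule, Cbll1, Numb, Zeb1 and Ctnnbip1 lost their call under the alternatives given beside their values. Cdh11 had too few reads of its own to be tested on reads that match 1 gene, and Cdh5 and Cdh11 had too low a median coverage. Depth limits Cdh1, Cdh3, Cdh5 and the exons of Ctnnd1.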

Other observations

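Among the listed genes with no deposited reads, Pcdh19 and Tes stood out by the reads that matched their transcripts alone. Pcdh19, a protocadherin of the same non-clustered family as Pcdh7, had 25, 31 and 34 reads that matched it alone in CD24- and 238, 751 and 855 in CD24+ libraries. On such reads its level was 3.24 ± 0.634 CPM in CD24- and 41.9 ± 4.55 CPM in CD24+ (SD, n = 3 each), with a log2 fold change of 3.72 (SE 0.16, edgeR adjusted p = 7.19e-08). Tes, an actin-binding LIM protein of junctions, stood at 375 ± 9.52 and 338 ± 12.0 CPM on the same scale and did not pass the test (log2 fold change -0.13, edgeR adjusted p = 0.196). Pcdh9, Pcdh11x and Cdh23 were the reverse, with 4225, 471 and 1368 reads deposited under their names, while 4, 0 and 107 of all mapped reads matched their transcripts.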
